A study of Homo sapiens with 6 samples.

Results

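The cytochrome P450 family genes were examined in HepG2 cells after knockdown of LINC01977. The members were the rows of the deposited table whose symbol consists of CYP, digits, 1 letter and digits, with CYP51A1 left out, which gave 41 of 29153 listed genes. Of these, 15 were measured, with a mean FPKM (fragments per kilobase of transcript scaled to library size, a level per length) of at least 0.5 over the 6 libraries, and 26 were near zero. Messenger RNA was profiled in HepG2, an established human cell line derived from hepatocellular carcinoma, 72 h after infection with a lentivirus. In 3 libraries (sh-NC) the virus carried a control short hairpin RNA, and in the other 3 (sh-LINC01977) a hairpin against LINC01977. According to the study's methods, infected cells were selected with puromycin, so both groups share the virus and the selection. The groups represent 1 cell line, and the study lists 1 hairpin against LINC01977. The methods give 3 samples per group and state in general that experiments were repeated, without saying whether these libraries came from separate cultures, so p-values measure only the spread between these libraries, which may be technical.

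P450 enzymes are heme proteins that insert 1 atom of oxygen into a substrate, with electrons passed on by P450 reductase in the endoplasmic reticulum or by ferredoxin in mitochondria. Members of the CYP1, CYP2 and CYP3 families oxidize many drugs and other foreign compounds, whereas other members act on sterols, fatty acids, eicosanoids, retinoic acid or vitamin D. The adult liver is the main site of drug-oxidizing P450 enzymes, and hepatoma lines such as HepG2 are known for low levels of many of them.

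Total counts ranged from 49929024 to 60441515 per library. The targeted gene, LINC01977, had counts of 4, 0 and 16 in the controls and 0, 0 and 4 after knockdown, too few to show a reduction at this depth. The paper reports qRT-PCR checks of the knockdown in HepG2 cells, without tying them to these libraries. Of 8 hepatocyte markers, all tested, 6 were lower and 0 higher after knockdown (edgeR, adjusted p under 0.05), and their summed level was 3195 to 3484 FPKM in sh-NC and 2154 to 2161 FPKM in sh-LINC01977 libraries. Of 8 fibroblast markers, 2 were tested and 1 was higher, with a summed level of 3.04 to 4.21 and 5.48 to 7.67 FPKM in the respective groups. COL1A1 had a mean of 3.72 FPKM and PDGFRB, the higher one, 1.10 FPKM, while COL3A1 and THY1 were under 0.05 FPKM. The fetal liver list (3 tested) had 1 lower gene, and the cholangiocyte list (3 tested) had 1 higher and 1 lower. In the leukocyte list (3 tested) 1 was lower, LYZ, which had a high mean of 577 FPKM. CD68 of that list had 12.6 FPKM and PTPRC was under 0.05 FPKM. No endothelial marker was tested. The part of these shifts in the P450 values was not tested, and in bulk RNA fewer cells of a type cannot be told apart from less RNA per cell.

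Among the 41 members, the summed level was dominated by a pair of mitochondrial enzymes. CYP24A1, which inactivates vitamin D by 24-hydroxylation (ENSG00000019186, chromosome 20, 54153449 to 54173973), had the highest mean level, 54.1 FPKM. It was followed by CYP27A1, the sterol 27-hydroxylase of bile acid synthesis (ENSG00000135929, chromosome 2, 218781749 to 218815293), at 43.6 FPKM. Of the other members, 8 were between 1 and 10 FPKM and 5 between 0.5 and 1 FPKM. CYP51A1, a P450 gene left out of the members, had 16.3 FPKM. In sh-NC libraries CYP24A1 stood below CYP27A1, at 34.8 ± 4.5 against 40.9 ± 1.2 FPKM (SD, n = 3 per group), and in sh-LINC01977 libraries above it, at 73.5 ± 4.1 against 46.2 ± 2.3 FPKM (SD, n = 3 per group). The summed level of all 41 members was 112 ± 3.7 FPKM in sh-NC and 157 ± 5.1 FPKM in sh-LINC01977 libraries (SD, n = 3 per group). CYP24A1 made up 31.0% ± 3.1 of that sum in sh-NC and 46.7% ± 2.4 in sh-LINC01977 libraries (SD, n = 3 per group), and without it the sums were 77.2 ± 1.7 and 83.8 ± 4.8 FPKM. At the boundary of the measured set, CYP2J2 was just inside with 0.512 FPKM and CYP2D7 just outside with 0.481 FPKM.

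**Figure D1:**
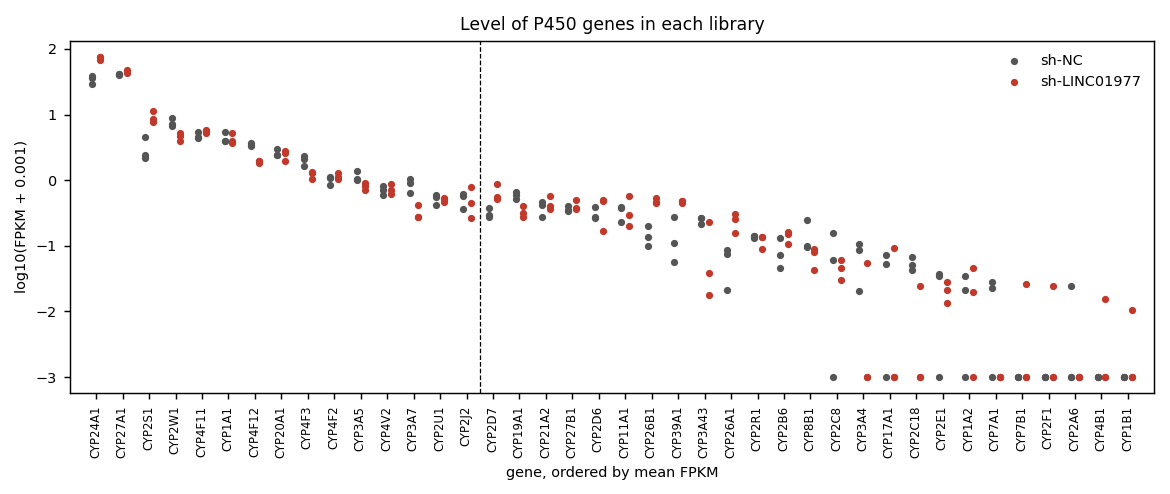
Level of 40 of the 41 P450 genes in each library, as log10(FPKM + 0.001), ordered by mean FPKM from left to right. Grey points are sh-NC and red points sh-LINC01977 libraries, points at -3 are values of 0, and the dashed line separates the 15 measured genes from those near zero. CYP24A1 and CYP27A1 stand above all others, and many drug-oxidizing members on the right were listed at 0 in some libraries.

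To find which members changed after knockdown, counts were fitted in edgeR (quasi-likelihood test, scaling by the trimmed mean of M values, TMM), with p-values adjusted over the 13452 genes that reached the same mean level of 0.5 FPKM. A gene was called when its adjusted p was under 0.05. Of the 15 measured members, 6 were called (40%), against 15.1% of all tested genes. CYP24A1 and CYP2S1 rose, 2 of 15 where 7.05% of all tested genes were higher. CYP4F12, CYP4F3, CYP2W1 and CYP3A7 fell, 4 of 15 where 8.07% of all tested genes were lower. Of these, CYP3A7 reached the mean of 0.5 FPKM only through its control libraries. The median log2 fold change of the measured members was -0.11, and that of all tested genes was -0.0010. When libraries were scaled by their totals and not by TMM, the calls over all genes split into 1455 higher and 768 lower, in place of 948 and 1085, while the same 6 members were called. By the criteria of the study's methods, a 2-fold change with an unadjusted P of 0.05, CYP24A1 and CYP2S1 were higher (1.55% of all tested genes) and CYP3A7 was lower (1.05%). The groups were apart, with no overlap of CPM, in 8 of the 15 (53.3%) against 37.1% of all tested genes. Of these 8, 3 were higher and 5 lower, against 18.8% and 18.3% of all tested genes.

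**Figure D2:**
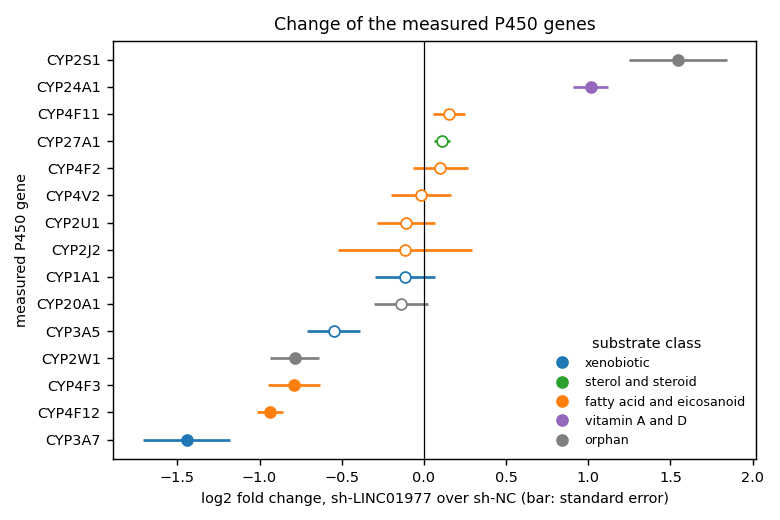
Log2 fold change of the 15 measured P450 genes, sh-LINC01977 over sh-NC, with its standard error from edgeR (3 libraries a group). Colours give the substrate class, and filled points had an adjusted p under 0.05. The values ran from -1.44 for CYP3A7 to 1.55 for CYP2S1.

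Of 5 vitamin A and D enzymes in the table, only CYP24A1 was measured, and it rose. Its counts were 10059, 9367 and 8683 in the controls and 20059, 22312 and 16685 after knockdown. In CPM, counts scaled to the size of the library, it had 185, 190 and 148 in the controls and 364, 367 and 324 after knockdown. Every knockdown library thus lay above every control library. Its edgeR log2 fold change was 1.02 (standard error [SE] 0.11, edgeR adjusted p = 0.0022), a 2.02-fold increase, and no other listed gene shares a 50-base stretch with its annotated transcripts. The gene of the vitamin D receptor, VDR, through which vitamin D induces CYP24A1, was near zero with 0.0684 FPKM.

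Among the near-zero members of this class, both listed genes of retinoic acid breakdown had higher counts after knockdown. CYP26B1, a retinoic acid hydroxylase (ENSG00000003137, chromosome 2, 72129238 to 72148038), had counts of 35, 42 and 75 in the controls and 178, 169 and 144 after knockdown. In the edgeR fit without a filter on low values, where 2.44% of all genes were called higher and 2.92% lower, it rose by a log2 fold change of 1.65 (SE 0.29, adjusted p = 0.019). The adjusted p of CYP26B1 was 0.062 without the first, 0.061 without the second and 0.055 without the third sh-LINC01977 library, and 0.068 without the second sh-NC library. CYP26A1, the other retinoic acid hydroxylase (ENSG00000095596, chromosome 10, 93073475 to 93077890), which was chosen after its values were seen, had counts of 16, 5 and 20 against 62, 58 and 30. Its libraries did not overlap between groups either, but its log2 fold change of 1.82 had a standard error of 0.52 and did not pass (edgeR adjusted p = 0.11), and 23.3% of its 50-base stretches also occur in AL358613.3. CYP27B1, which makes active vitamin D and overlaps METTL1, had counts of 83, 76 and 104 against 86, 128 and 80, and CYP2R1, a vitamin D 25-hydroxylase, 43, 41 and 47 against 29, 46 and 38.

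RefSeq lists a start of CYP26A1 whose window, chr10:93073643-93073942 on the plus strand of GRCh38.p14, holds a known pattern of retinoic acid response elements. Windows here run from 250 bases before a start to 50 bases from it on. They were searched on both strands for AGGTCA and AGTTCA, which are half-sites of nuclear receptors, and for GCGTG, the core of the element bound by the aryl hydrocarbon receptor AHR. No stretch of letters can count under 2 of these motifs. A match is a match of letters and not a bound site. The CYP26A1 window is shown because it has AGTTCA in 2 places on the opposite strand, 5 bases apart, and capitals mark both. The other window of CYP26A1 (chr10:93073225-93073524) holds none of the motifs searched.
CYP26A1: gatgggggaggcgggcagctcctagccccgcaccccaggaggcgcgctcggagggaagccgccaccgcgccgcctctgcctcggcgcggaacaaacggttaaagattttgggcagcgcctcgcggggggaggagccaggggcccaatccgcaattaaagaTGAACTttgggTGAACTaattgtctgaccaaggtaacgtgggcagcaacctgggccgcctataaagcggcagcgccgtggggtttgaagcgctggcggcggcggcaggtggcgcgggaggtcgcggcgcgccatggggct
AGTTCA stands in 2 or more places in 0.80% of all 35116 RefSeq windows and in 1 of the 40 windows found for 29 of the 41 members, the one printed here. AGGTCA stands in 13.8%, AGTTCA in 10.4% and GCGTG in 36.5% of all windows, and in 12 (30%), 5 (12.5%) and 7 (17.5%) of the 40 P450 windows respectively. Some members have several windows, so these are not independent. No window was found for CYP24A1 and CYP4F12.

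CYP2S1 and CYP2W1, which are expressed outside the adult liver and whose main substrates are less well defined, were measured at similar levels (6.10 and 6.08 FPKM) and changed in opposite directions. CYP2S1 (ENSG00000167600, chromosome 19, 41193049 to 41207539) had counts of 431, 798 and 510 in the controls and 2133, 1832 and 1376 after knockdown. Its CPM were 7.91, 16.2 and 8.66 in the controls and 38.8, 30.1 and 26.7 after knockdown, so the groups were apart although the second control library lay well above the other controls. On the log2 scale the change was 1.55 (SE 0.30, edgeR adjusted p = 0.017), a 2.92-fold increase and the largest among the measured members. Leaving out the first or the third sh-NC library or the first or second sh-LINC01977 library gave an adjusted p of 0.051, 0.056, 0.053 and 0.051 for CYP2S1.
Of the other members in the CYP2 cluster on chromosome 19, which spans 364 kb, CYP2B6, a drug-oxidizing enzyme induced by phenobarbital, had counts of 12, 17 and 37 against 37, 44 and 25, and CYP2A6 and CYP2F1 had counts in 1 library each. The CYP2S1 window, chr19:41192969-41193268 on the plus strand, is shown with its 1 match to AGGTCA, on the opposite strand, in capitals.
CYP2S1: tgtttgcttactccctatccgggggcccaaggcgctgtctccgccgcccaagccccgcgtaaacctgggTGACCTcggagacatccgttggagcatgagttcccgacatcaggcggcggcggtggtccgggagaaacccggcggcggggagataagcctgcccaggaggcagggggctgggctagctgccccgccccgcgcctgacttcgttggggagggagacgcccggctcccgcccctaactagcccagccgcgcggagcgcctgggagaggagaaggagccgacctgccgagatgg
CYP2W1 (ENSG00000073067, chromosome 7, 983199 to 989640), a gene known for expression in tumours, had counts of 1706, 1230 and 1363 in the controls and 863, 809 and 880 after knockdown. It fell from 26.5 ± 4.3 to 15.4 ± 1.9 CPM (SD, n = 3 per group) without overlap between groups. This corresponded to a log2 fold change of -0.79 (SE 0.15, edgeR adjusted p = 0.016), and without the first or the second sh-LINC01977 library the adjusted p was 0.051 and 0.052. CYP20A1, a member with no established substrate, had 10.1 ± 1.3 and 9.16 ± 1.5 CPM (SD, n = 3 per group) with overlapping groups, a log2 fold change of -0.14 (SE 0.16, edgeR adjusted p = 0.61).

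**Figure D3:**
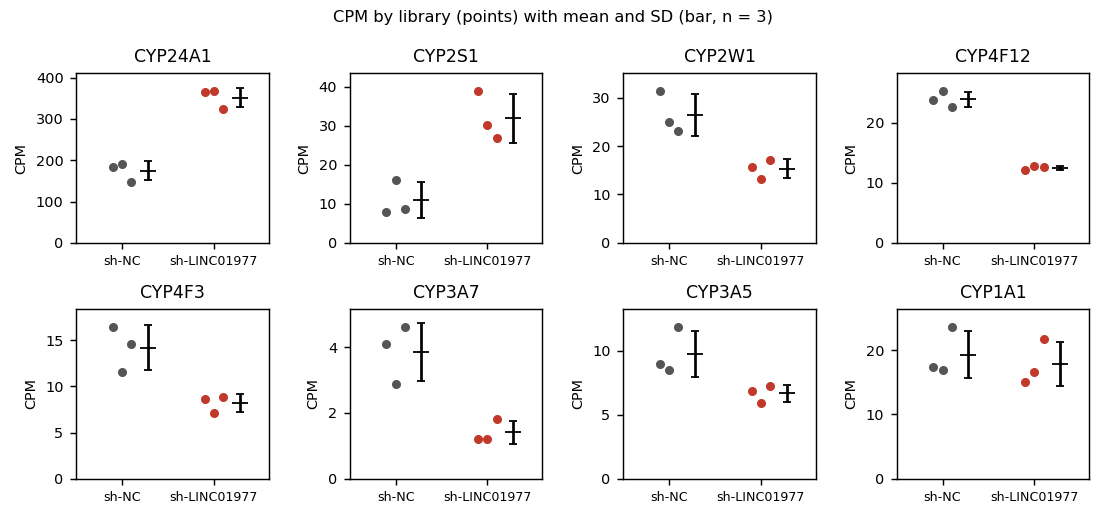
CPM of 8 P450 genes in each library, with sh-NC in grey and sh-LINC01977 in red, and the mean with its SD (n = 3) as a black bar beside the points. Each panel has its own axis from 0. The groups were apart for the first 7 genes and overlapped for CYP1A1.

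The 4 measured CYP4F genes, whose enzymes hydroxylate the end of fatty acid chains and of leukotriene B4, lie within 294 kb on chromosome 19 (15640897 to 15934867) and did not change alike. CYP4F3 and CYP4F12 at the lower coordinates fell, and CYP4F2 and CYP4F11 at the higher coordinates had small positive values. CYP4F12 (ENSG00000186204, 15672757 to 15697174, plus strand) had counts of 1299, 1246 and 1338 in the controls and 665, 780 and 650 after knockdown. Its CPM were 23.9, 25.3 and 22.7 against 12.1, 12.8 and 12.6, a narrow spread in both groups. In edgeR the log2 fold change was -0.94 (SE 0.080, edgeR adjusted p = 0.0013), 1.91-fold lower after knockdown. CYP4F3, the leukotriene B4 hydroxylase (ENSG00000186529, 15640897 to 15662825, plus strand), had counts of 893, 572 and 859 against 478, 434 and 454. It fell from 14.2 ± 2.4 to 8.21 ± 0.94 CPM (SD, n = 3 per group), a log2 fold change of -0.79 (SE 0.16, edgeR adjusted p = 0.020). The call for CYP4F3 was lost without the first (adjusted p = 0.060) or the third sh-NC library (0.061) and without the first (0.054), second (0.068) or the third sh-LINC01977 library (0.052).

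CYP4F2, a vitamin K and arachidonic acid hydroxylase (ENSG00000186115, 15878023 to 15898120, minus strand), had counts of 242, 218 and 201 in the controls and 267, 248 and 217 after knockdown. The groups overlapped, and the log2 fold change was 0.10 (SE 0.17, edgeR adjusted p = 0.73), with -0.015 when the third sh-NC library was left out. CYP4F11, a hydroxylase of fatty acids and vitamin K (ENSG00000171903, 15912367 to 15934867, minus strand), had 24.2 ± 2.6 and 26.9 ± 1.3 CPM (SD, n = 3 per group) and a log2 fold change of 0.15 (SE 0.097, edgeR adjusted p = 0.34). For pairs chosen after the values were seen, the log2 ratio of the counts was compared within each library, where scaling cancels. The log2 ratio of CYP4F12 to CYP4F11 was -0.013 ± 0.23 in sh-NC and -1.11 ± 0.11 in sh-LINC01977 libraries, and that of CYP4F3 to CYP4F2 was 1.79 ± 0.36 and 0.90 ± 0.14 (SD, n = 3 per group). Both pairs had every knockdown library below every control library (p = 0.1 in an exact permutation test, two-sided, the lowest value possible with 3 per group). Of 50-base stretches in annotated transcripts, CYP4F2 shared 12.1% and CYP4F3 8.64% with other genes, mostly each other, so their counts are uncertain to that extent, whereas CYP4F12 shared 1.97% and CYP4F11 0.762%.

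Of the 8 genes listed in the CYP4F interval, 2 of the 6 tested were no members. UCA1, a long noncoding RNA (ENSG00000214049, 15828961 to 15836320), which was chosen after its values were seen, lies between CYP4F12 and CYP4F2. It rose from 8.39 ± 0.99 to 64.8 ± 1.7 CPM (SD, n = 3 per group), a log2 fold change of 2.95 (SE 0.10, edgeR adjusted p = 0.00014), and it overlaps LINC01764. The other, AC005336.1, lies between CYP4F2 and CYP4F11 and had a log2 fold change of -0.16 (edgeR adjusted p = 0.71). The windows of CYP4F3 (chr19:15641062-15641361, plus strand) and CYP4F2 (chr19:15898025-15898324, minus strand) are shown as the pair whose transcripts share sequence while the log2 ratio of their counts differed between groups, and hold none of the motifs searched.
CYP4F3: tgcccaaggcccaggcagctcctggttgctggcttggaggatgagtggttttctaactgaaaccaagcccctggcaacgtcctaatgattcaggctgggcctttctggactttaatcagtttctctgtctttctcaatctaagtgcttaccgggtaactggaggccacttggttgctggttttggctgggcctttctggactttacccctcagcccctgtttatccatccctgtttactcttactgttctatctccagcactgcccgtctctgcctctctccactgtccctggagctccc
CYP4F2: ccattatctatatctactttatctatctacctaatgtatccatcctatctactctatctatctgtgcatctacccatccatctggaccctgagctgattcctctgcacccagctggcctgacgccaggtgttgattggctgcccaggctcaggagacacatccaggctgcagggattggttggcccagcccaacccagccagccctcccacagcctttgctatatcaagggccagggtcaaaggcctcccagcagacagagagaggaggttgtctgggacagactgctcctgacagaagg
These windows were 46.5% identical in a global alignment, against a median of 49.6% over 406 pairs of P450 genes, and the windows of CYP4F2 and CYP4F11 were 66.7% identical.

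**Figure D4:**
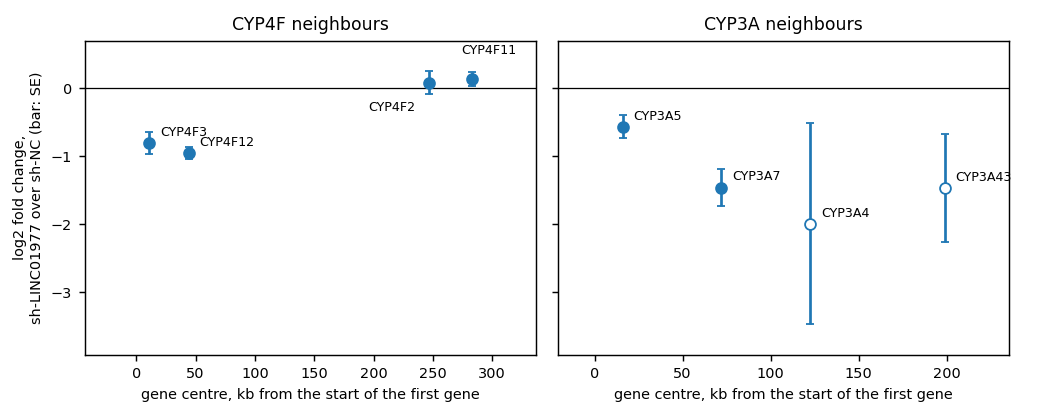
Log2 fold change in the edgeR fit without a filter, with its standard error, of neighbouring P450 genes against the distance of the gene's centre from the start of the first gene, in kb. Filled points are measured and open points near zero. CYP4F3 and CYP4F12 lie below 0 and CYP4F2 and CYP4F11 just above it, while all 4 CYP3A genes lie below 0.

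The other measured fatty acid enzymes showed no change past the threshold. CYP4V2, a fatty acid hydroxylase of the eye and other tissues, had 8.77 ± 1.4 and 8.65 ± 1.6 CPM, and its log2 fold change of -0.02 was positive under scaling by library totals (0.046), upper quartile scaling (0.012) and limma on log2(FPKM + 0.1) and log2(FPKM + 1) (0.036 and 0.018). CYP2U1, a fatty acid hydroxylase, had 4.04 ± 0.71 and 3.75 ± 0.24 CPM and CYP2J2, an arachidonic acid epoxygenase, 1.97 ± 0.49 and 1.82 ± 0.94 CPM (SD, n = 3 per group). The log2 fold changes of CYP2U1 and CYP2J2 were both -0.11, with standard errors of 0.18 and 0.41 and adjusted p of 0.72 and 0.88 from edgeR. CYP4V2 overlaps KLKB1 and CYP2U1 overlaps AC096564.1 and AC096564.2, and it is not stated whether counting used strand. Of the 7 measured fatty acid and eicosanoid enzymes, 2 were lower, CYP4F12 and CYP4F3, and 0 higher (28.6%, against 15.1% of all tested genes in either direction).

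All 4 CYP3A genes, which lie within 218 kb on chromosome 7 (99648194 to 99866102), had negative log2 fold changes, and 1 of the 2 measured ones fell. CYP3A7, the main CYP3A enzyme of the fetal liver (ENSG00000160870, 99705037 to 99735196, minus strand), had counts of 223, 142 and 271 in the controls and 67, 74 and 94 after knockdown. Its CPM were 4.09, 2.88 and 4.60 against 1.22, 1.22 and 1.83, without overlap. The fitted change was, on the log2 scale, -1.44 (SE 0.27, edgeR adjusted p = 0.015), 2.72-fold lower after knockdown and the largest decrease among the measured members. CYP3A7 had 0.862 ± 0.198 FPKM in sh-NC and 0.326 ± 0.086 FPKM in sh-LINC01977 libraries (SD, n = 3 per group). Only the controls thus lifted its mean past 0.5 FPKM. In the edgeR fit without a filter its adjusted p was 0.023. Without the first or the second sh-LINC01977 library its adjusted p was 0.056 and 0.059. Of its 50-base stretches, 38.6% also occur in the readthrough gene CYP3A7-CYP3A51P, which overlaps it and had counts of 11, 0 and 32 in the controls and 0 in all knockdown libraries, so the split between both is uncertain.

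CYP3A5, a drug-oxidizing enzyme of liver and intestine (ENSG00000106258, 99648194 to 99679998, minus strand), had counts of 489, 420 and 697 in the controls and 377, 361 and 374 after knockdown. Its CPM of 8.98, 8.51 and 11.8 lay above the 6.85, 5.93 and 7.26 after knockdown. The log2 fold change of -0.55 (standard error 0.16) had an adjusted p of 0.069 from edgeR and of 0.020 from DESeq2. The log2 count ratio of CYP3A7 to CYP3A5 was -1.35 ± 0.22 in sh-NC and -2.26 ± 0.25 in sh-LINC01977 libraries (SD, n = 3 per group; p = 0.1 in the same exact permutation test). CYP3A4, the main drug-oxidizing P450 of the adult liver (ENSG00000160868, 99756960 to 99784265), had counts of 20, 4 and 25 in the controls and 12, 0 and 0 after knockdown, and CYP3A43 had 50, 45 and 43 against 3, 9 and 38. Neither passed the test (edgeR without the filter, adjusted p = 0.48 and 0.41).

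The windows of CYP3A4 (chr7:99784135-99784434), CYP3A7 (chr7:99735147-99735446) and CYP3A5 (chr7:99679947-99680246), all on the minus strand, are shown because of their shared descent. In CYP3A4 and CYP3A5, AGTTCA on the opposite strand is followed after 6 bases by AGGTCA on the strand of the gene, while CYP3A7 has AGGTCA alone, and capitals mark these letters.
CYP3A4: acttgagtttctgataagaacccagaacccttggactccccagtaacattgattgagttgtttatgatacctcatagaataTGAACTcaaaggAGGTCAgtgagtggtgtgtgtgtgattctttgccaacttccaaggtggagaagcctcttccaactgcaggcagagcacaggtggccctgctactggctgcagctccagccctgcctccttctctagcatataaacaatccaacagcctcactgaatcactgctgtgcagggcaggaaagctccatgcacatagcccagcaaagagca
CYP3A7: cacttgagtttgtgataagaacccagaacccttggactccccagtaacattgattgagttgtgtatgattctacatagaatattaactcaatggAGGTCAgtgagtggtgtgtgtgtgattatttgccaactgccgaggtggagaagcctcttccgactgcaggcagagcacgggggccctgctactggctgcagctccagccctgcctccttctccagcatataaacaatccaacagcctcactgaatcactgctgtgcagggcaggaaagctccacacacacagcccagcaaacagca
CYP3A5: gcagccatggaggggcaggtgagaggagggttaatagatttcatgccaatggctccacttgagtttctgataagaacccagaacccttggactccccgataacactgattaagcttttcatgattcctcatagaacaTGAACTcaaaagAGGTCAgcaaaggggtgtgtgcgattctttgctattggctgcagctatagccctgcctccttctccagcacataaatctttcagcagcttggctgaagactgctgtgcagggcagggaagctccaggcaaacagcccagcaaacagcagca
The windows of CYP3A4 and CYP3A7 were 93.7% identical, the highest value over the 406 pairs, while their mean levels were 0.0444 and 0.594 FPKM. The windows of CYP3A5 and CYP3A7 were 57.3% identical. The window of CYP3A43, which is not shown, holds none of the motifs searched. It was 67.5% identical to that of CYP3A4 and 65.8% to that of CYP3A7.

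CYP1A1, the classical inducible target of AHR and another measured drug-oxidizing member (ENSG00000140465, chromosome 15, 74719542 to 74725610), showed no change past the threshold. Its CPM were 17.4, 16.9 and 23.5 in the controls and 15.1, 16.7 and 21.7 after knockdown, which overlapped. Its edgeR log2 fold change was -0.12 (SE 0.18, edgeR adjusted p = 0.72) and became 0.056 without the third sh-NC library. Its window, chr15:74725479-74725778 on the minus strand, is shown with its single GCGTG in capitals.
CYP1A1: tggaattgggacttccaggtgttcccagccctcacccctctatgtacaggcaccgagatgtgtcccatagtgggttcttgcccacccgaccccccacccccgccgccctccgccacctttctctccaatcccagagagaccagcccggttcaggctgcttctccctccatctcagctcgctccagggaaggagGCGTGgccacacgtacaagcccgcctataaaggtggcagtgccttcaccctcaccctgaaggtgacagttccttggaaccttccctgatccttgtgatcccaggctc
AHR itself, named here after its values were seen, rose from 17.7 ± 1.8 to 24.4 ± 1.3 CPM (SD, n = 3 per group; log2 fold change 0.47, edgeR adjusted p = 0.024). The call for AHR was lost in 7 of 15 alternatives, among them the fit without a filter (adjusted p = 0.057) and 5 of the 6 fits with 1 library left out (adjusted p from 0.058 to 0.081). Of 5 tested AHR targets outside the P450 family, 2 were higher and 0 lower (40%, against 15.1% of all tested genes in either direction). ALDH3A1, an aldehyde dehydrogenase, rose by a log2 fold change of 2.04 (SE 0.13, edgeR adjusted p = 0.00069) and the glucuronosyltransferase UGT1A6 by 1.44 (SE 0.19, edgeR adjusted p = 0.0045). UGT1A6 has exons in common with other UGT1A genes, so its counts are uncertain. Its mean was 0.485 FPKM in sh-NC and 1.39 FPKM in sh-LINC01977 libraries, so it passed the filter only through the knockdown libraries. Without the filter it was also called (edgeR adjusted p = 0.0061). The most abundant of the 5, the quinone reductase NQO1 with 226 FPKM, had a log2 fold change of 0.10 (SE 0.055, edgeR adjusted p = 0.29). The remaining tested targets, TIPARP and NFE2L2, named after their values were seen, had -0.17 and 0.42 (edgeR adjusted p = 0.33 and 0.44). AHRR, also a target in the list, was near zero with 0.0821 FPKM.

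CYP27A1 was the only measured member of 10 sterol and steroid enzymes in the table. Its CPM were 151, 153 and 157 in the controls and 173, 159 and 166 after knockdown, without overlap. The difference was small, a log2 fold change of 0.11 (standard error 0.048), and did not pass (edgeR adjusted p = 0.18). CYP7A1, CYP8B1 and CYP7B1, which also act in bile acid synthesis, were near zero. CYP7A1, the rate-limiting enzyme of the classical pathway, had counts of 6, 0 and 5 in the controls and 0 in every knockdown library, where a count of 0 allows up to 3. CYP8B1, which sets the share of cholic acid and overlaps ACKR2, had counts of 30, 69 and 33 against 27, 27 and 12. CYP7B1, an oxysterol hydroxylase, had 4 counts in 1 sh-LINC01977 library and 0 in all others. Of 9 tested enzymes of bile acid synthesis outside the P450 family, 4 were lower and 0 higher (44.4%, against 15.1% of all tested genes in either direction). AKR1D1, the 5-beta reductase, fell by 1.59 on the log2 scale (SE 0.26, edgeR adjusted p = 0.011). HSD3B7 fell by 0.51 (adjusted p = 0.0050), HSD17B4, the most abundant, by 0.37 (adjusted p = 0.0030) and ACOX2 by 0.46 (adjusted p = 0.034, all from edgeR), where the call for ACOX2 was lost in 9 of 15 alternatives (adjusted p up to 0.10).

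CYP19A1, the aromatase that makes estrogens (ENSG00000137869, chromosome 15, 51208057 to 51338610), was lower after knockdown at a level just below the filter. Its counts were 308, 351 and 377 in the controls and 230, 198 and 145 after knockdown, without overlap between groups. CYP19A1 overlaps MIR4713HG, AC020891.2 and further listed genes, and its counts cannot be split from theirs because the use of strand is not stated. In the edgeR fit without the filter its log2 fold change was -0.91 (SE 0.19, adjusted p = 0.036). The call for CYP19A1 was kept without the first sh-LINC01977 library and lost in the other 5 fits with 1 library left out and with limma. Its adjusted p reached 0.15 over all alternatives. CYP39A1, an oxysterol 7-alpha hydroxylase named after its values were seen, had counts of 13, 21 and 64 against 102, 103 and 92 (log2 fold change 1.58, SE 0.51, unfiltered edgeR adjusted p = 0.16). CYP21A2, the steroid 21-hydroxylase of the adrenal cortex, had counts of 100, 49 and 90 against 80, 81 and 106. It overlaps TNXB and shares 33.2% of its 50-base stretches with the pseudogene CYP21A1P. CYP2D7, a close copy of CYP2D6, had counts of 47, 53 and 52 against 81, 94 and 123 without overlap (log2 fold change 0.92, SE 0.28, unfiltered edgeR adjusted p = 0.12), and CYP2D6, a drug-oxidizing enzyme that shares 34.4% of its stretches with other genes, had 49, 60 and 49 against 81, 30 and 72.

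In the fit without a filter, 2 of the 26 near-zero members were called, CYP26B1 and CYP19A1. Of all 29153 genes, those above the filter included, 5.36% were called in either direction. The libraries did not overlap between groups for 8 (30.8%), 4 higher and 4 lower, against 10.6% of all genes below the filter. This share was 37.1% among tested genes, and members were not matched to other genes by count level. In 11 of the 26 near-zero members every library had at least 10 counts, whereas 8 had fewer than 10 counts in every library. Of the same 26, 13 were at 0 in at least 1 library and 5 had counts in 1 library only. Adult liver enzymes of drug oxidation were among the lowest. CYP2E1, which oxidizes ethanol and overlaps SYCE1, had counts of 24, 0 and 27 in the controls and 13, 9 and 19 after knockdown. CYP1A2, the caffeine demethylase, had 4, 6 and 0 against 0, 4 and 8. CYP2C8 had 0, 26 and 12 against 8, 7 and 10, and CYP2C18, whose groups did not overlap, 12, 8 and 8 against 4, 0 and 0. Of the steroid-producing enzymes, CYP11A1, which cleaves the cholesterol side chain, had counts of 95, 82 and 60 against 131, 77 and 43, and CYP17A1 had 0, 12 and 19 against 22, 0 and 0. The 5 members with counts in 1 library only were CYP7B1, CYP2F1, CYP2A6, CYP4B1 and CYP1B1, at 4 or 5 counts. Of 38 counts between 1 and 20 in P450 genes, 23 (60.5%) were multiples of 4, so single counts at these levels may not be independent fragments. Of 55 symbols in the substrate class lists, 14 had no row in the table.

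The proteins that serve P450 enzymes were counted from lists of redox partners and of heme supply. Of 9 tested redox partners, 2 were lower and 0 higher (22.2%, against 15.1% of all tested genes in either direction). POR, the reductase that supplies electrons to microsomal P450 enzymes, fell from 211 ± 5.9 to 158 ± 9.8 CPM (SD, n = 3 per group; log2 fold change -0.42, SE 0.057, edgeR adjusted p = 0.0052). CYB5A, the cytochrome b5 that assists CYP3A enzymes, fell from 116 ± 0.73 to 87.8 ± 3.7 CPM (SD, n = 3 per group; log2 fold change -0.40, edgeR adjusted p = 0.0040). PGRMC1, a heme-binding partner of P450 enzymes and the most abundant of the list with 45.9 FPKM, had a log2 fold change of 0.05 (edgeR adjusted p = 0.59). The mitochondrial partners FDX1 and FDXR, which serve CYP24A1 and CYP27A1 and were named after their values were seen, had log2 fold changes of -0.09 and -0.02 (edgeR adjusted p = 0.57 and 0.90).

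Of 10 tested genes in the heme supply list, 3 were lower and 0 higher (30%, against 15.1% of all tested genes in either direction). The list also holds HMOX1 and HMOX2 of heme breakdown, so this count is not one of heme synthesis alone. The log2 fold change was negative in 5 of the 10. HMOX1, the heme oxygenase that degrades heme, fell from 71.2 ± 0.97 to 39.8 ± 1.8 CPM (SD, n = 3 per group; log2 fold change -0.84, SE 0.056, edgeR adjusted p = 0.00069). ALAD and ALAS1, which act at the first steps of heme synthesis, fell by 0.39 and 0.21 on the log2 scale (edgeR adjusted p = 0.013 and 0.040), and the call for ALAD was lost in 3 of the 6 fits with 1 library left out (adjusted p from 0.051 to 0.052). The call for ALAS1 was lost with scaling by library totals (adjusted p = 0.10) and whichever library was left out (adjusted p from 0.068 to 0.12). UROD, the most abundant of the list, had a log2 fold change of 0.15 (edgeR adjusted p = 0.13).

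Of 25 transcriptional regulators of P450 genes, 21 were tested, 8 were lower and 1, AHR, was higher (42.9%, against 15.1% of all tested genes in either direction), a call for AHR that was lost in 7 of 15 alternatives. ONECUT1 fell by 1.58 on the log2 scale (SE 0.20, edgeR adjusted p = 0.0041). Its mean was 0.928 FPKM in sh-NC and 0.319 FPKM in sh-LINC01977 libraries, so it passed the filter only through the controls. Without the filter it was also called (edgeR adjusted p = 0.0055). NR1H4, the bile acid receptor FXR, fell from 101 ± 6.6 to 37.3 ± 4.6 CPM (SD, n = 3 per group; log2 fold change -1.43, SE 0.10, edgeR adjusted p = 0.00087). NR0B2, the repressor SHP that FXR induces, fell by 0.69 (edgeR adjusted p = 0.0019), and CEBPA, the most abundant of the list with 51.1 FPKM, by 0.22 (edgeR adjusted p = 0.023), a call lost in 8 of 15 alternatives (adjusted p up to 0.075). The receptors of drug response that act on CYP3A and CYP2B genes, named after their values were seen, gave no call. PXR (NR1I2) had a log2 fold change of 0.46 (SE 0.18, edgeR adjusted p = 0.13), and CAR (NR1I3) was near zero with 0.10 FPKM. Of 3 tested enzymes of arachidonate and epoxide metabolism, edgeR called 0, with 1, EPHX1, at an unadjusted p under 0.05. EPHX1, an epoxide hydrolase and the most abundant of them, had a log2 fold change of -0.45 (adjusted p = 0.078 in edgeR and 0.0099 in DESeq2). Over the 56 tested genes of all lists together, which were chosen with earlier results of these data known, 3 were higher and 17 lower (35.7%, against the same 15.1%).

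**Figure D5:**
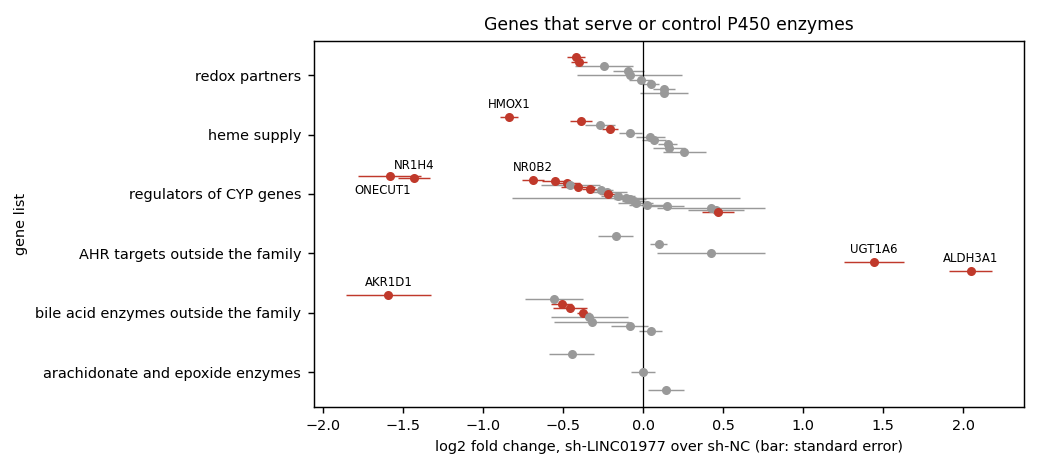
Log2 fold change with standard error (edgeR, 3 libraries a group) of the tested genes in 6 lists of partners, regulators and related enzymes. Red points had an adjusted p under 0.05, and called genes beyond 0.6 in either direction are named. Called genes lie left of 0 in 4 lists, apart from AHR among the regulators, and the called AHR targets lie right of 0.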

How the data were processed

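According to the study's methods, RNA of knockdown and control cells was extracted with Trizol and sequenced. Those methods name no cell line for the sequencing, and HepG2 is named in the sample titles. The authors deposited 1 table with whole-number counts per gene, not normalized, and FPKM values, which are scaled to transcript length and library total. The submitters' processing notes name HISAT2, StringTie, DESeq2, limma, bcl2fastq 2.0 and hg38, with no roles given. The counting tool and its use of strand are not given in the sources used here. Libraries were grouped by their labels, 3 a group. Counts were fitted with edgeR 4.0.16 in R 4.3.3 (quasi-likelihood test, TMM scaling, genes with mean FPKM of at least 0.5, Benjamini-Hochberg adjustment over 13452 genes). CPM are counts scaled to the tested total times the TMM factor. The fit was tested on simulated counts. Alternatives were no filter, a filter at 1 FPKM, scaling by library totals or upper quartile, DESeq2 1.42.0, limma 3.58.1 on log2(FPKM + 0.1) and log2(FPKM + 1), counts divided by 4, a replicate block and leaving out each library.

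Members, lists and class names were chosen with earlier results of these data known. Named genes are all measured members, near-zero members that were called or among the 3 highest, and, from each list, up to 3 called genes with the largest change and the most abundant gene. Counts of the other near-zero members are given so that members are accounted for, beyond that rule. The values of 1 near-zero member are not reported here. The fit without a filter served for near-zero members. Transcript stretches came from GENCODE 29, promoter windows from RefSeq (GRCh38.p14), found for 29 of 41 members, and were aligned with biopython 1.88. The floor of 3 counts covers counting error only.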

Additional observations from a re-analysis of the deposited data

Results flagged for a closer look

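CYP4F23P, a pseudogene on chromosome 19 (15564074 to 15584709) among 21 other CYP-named rows that are no members, had counts in every sh-LINC01977 library above all sh-NC libraries. Its counts were 6, 0 and 4 in sh-NC and 23, 14 and 19 in sh-LINC01977 libraries, a mean of 0.0594 ± 0.056 against 0.339 ± 0.097 CPM (SD, n = 3 each). The log2 fold change of 2.43 did not pass the test (edgeR without the filter, adjusted p = 0.26), and it was the only one of the 21 rows with all knockdown libraries above all controls. CYP51A1, another of these rows, had all knockdown libraries below all controls. Among all genes below the filter, the groups did not overlap in 10.6%, in either direction.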

How the results depend on the processing

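At an adjusted p under 0.05, the 2 higher and 4 lower P450 genes were called in 8 of the 9 settings that kept all libraries, and the exception, a filter at 1 FPKM, left CYP3A7 untested. DESeq2 added CYP3A5. With 1 library left out, 1 to 2 were higher and 1 to 4 lower, and CYP24A1 and CYP4F12 were called in every such fit. By a 2-fold change with an unadjusted P of 0.05, 5 genes in place of 2 were higher without the filter, and 1 to 2 with 1 library left out. In place of 1 lower gene there were 0 with a filter at 1 FPKM, which drops CYP3A7, and 0 with limma on log2(FPKM + 1), while 1 remained in each fit with 1 library left out. The log2 fold change turned sign in genes without a call. With 1 library left out it ranged from -0.28 to 0.056 for CYP1A1, from -0.015 to 0.16 for CYP4F2, from -0.17 to 0.098 for CYP4V2, from -0.24 to 0.0035 for CYP2U1, from -0.59 to 0.18 for CYP2J2 and from -0.082 to 0.34 for CYP21A2. That of CYP4V2 also turned with library totals (0.046), upper quartile scaling (0.012) and limma (0.036 and 0.018). The cause was not tested.

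The replicate block called the same 6 members, but 636 higher and 754 lower genes over the whole table in place of 948 and 1085. The correlation of deviations of same-numbered libraries was -0.034, 0.0051 and 0.061, and 2 of 6 libraries correlated best with their own number, so the numbers were not read as pairs. Without the filter, the adjusted p under the block was 0.070 for CYP26B1 and 0.11 for CYP19A1. At levels under 0.5 FPKM, counts are few and changes are read with little precision.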
